A study of Mus musculus with 10 samples.

Results

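The genes described here are 31 genes that encode proteins of the basement membrane and the cell surface receptors that bind it. They were taken by symbol from the 55335 genes of the deposited table, and all 31 were found. They comprise 9 laminin chains, 6 collagen IV chains, 6 linker proteins, proteoglycans and related collagens, and 10 receptors or receptor-associated proteins. RNA was measured by RNA-seq in hearts of wild-type male mice whose dams had received anti-Müllerian hormone during pregnancy (PAMH, 5 samples) or a vehicle, phosphate-buffered saline (control, 5 samples). Prenatal exposure to this hormone is used to model polycystic ovary syndrome. The age of the mice, the dose and the days of injection are not in the labels. The labels tie no sample to an animal or litter, so the p-values reflect only how these samples vary, be it technically or among litter mates. Values are FPKM, fragments scaled by transcript length and by the mapped total of the library, and so can be compared between genes. The comparison asks which of these genes differ in male hearts after the prenatal treatment.

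A basement membrane is a thin sheet of matrix that wraps each cardiomyocyte and lies under the endothelium of vessels. Laminins, each built of an alpha, a beta and a gamma chain, form a network that is anchored to cells, and collagen IV forms a separate network that gives the sheet its strength. Nidogens and the proteoglycan perlecan bridge the networks. Cells hold on to laminin through dystroglycan, which reaches dystrophin inside the cell, and through integrins that contain the Itgb1 chain. In heart tissue the cardiomyocyte sheet is rich in the laminin alpha chain from Lama2, and the sheets of vessels hold the chains from Lama4 and Lama5.

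Sample totals lay between 654350 and 717453 FPKM, and the read depth is unknown. PAMH replicates 4 and 5 had the fewest genes above 0, 16113 and 18037, where the other PAMH samples had 19449 to 20625 and controls 19664 to 21097. Markers of the heart were abundant, with Myh6 at 1439 ± 212 and 1511 ± 275 FPKM in control and PAMH hearts (mean ± SD, n = 5 each, here and below). In bulk tissue, fewer cells of a type and less RNA per cell cannot be told apart.

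Of the 31 genes, 24 had a mean of at least 1 FPKM and were tested. Lama5, Col4a1 and Nid2 were lower in PAMH hearts, none was higher and 21 did not pass (limma, adjusted p under 0.05 over all genes tested). Among all 9439 tested genes 6.19% were called, 1.24% as lower and 4.95% as higher. Each scale below is log2(FPKM + 1), on which the fold changes of low genes are understated. The log2 fold change was negative for 19 of the 24 genes, with a median of -0.09, where 32.7% of all tested genes were negative and the median of all was 0.07. With a length and GC trend fitted and subtracted in each library, 14 of the 24 were negative, where 31.2% of all tested genes were. The median was then -0.01, against 0.08 for all genes. Without PAMH replicates 4 and 5 the median of the members was -0.02, 16 were negative, and Lama5 alone was called. In that fit 30.8% of all tested genes were negative, with a median of 0.07. At an unadjusted p under 0.05, 7 of the 24 passed, 6 of them lower, where 24.0% of all tested genes passed and 4.34% were lower. Without control replicate 1, 2, 4 or 5 or PAMH replicate 1, 2 or 5, left out one at a time, Lama5 was the only member called. Over all genes 467 were higher and 117 lower in the deposited FPKM, and 218 were higher and 212 lower with median ratio scaling. Under that scaling 20 of the 24 members were negative, as were 51.1% of all tested genes. Under quantile normalization 21 of the 24 members and 50% of all tested genes were negative.

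**Figure D1:**
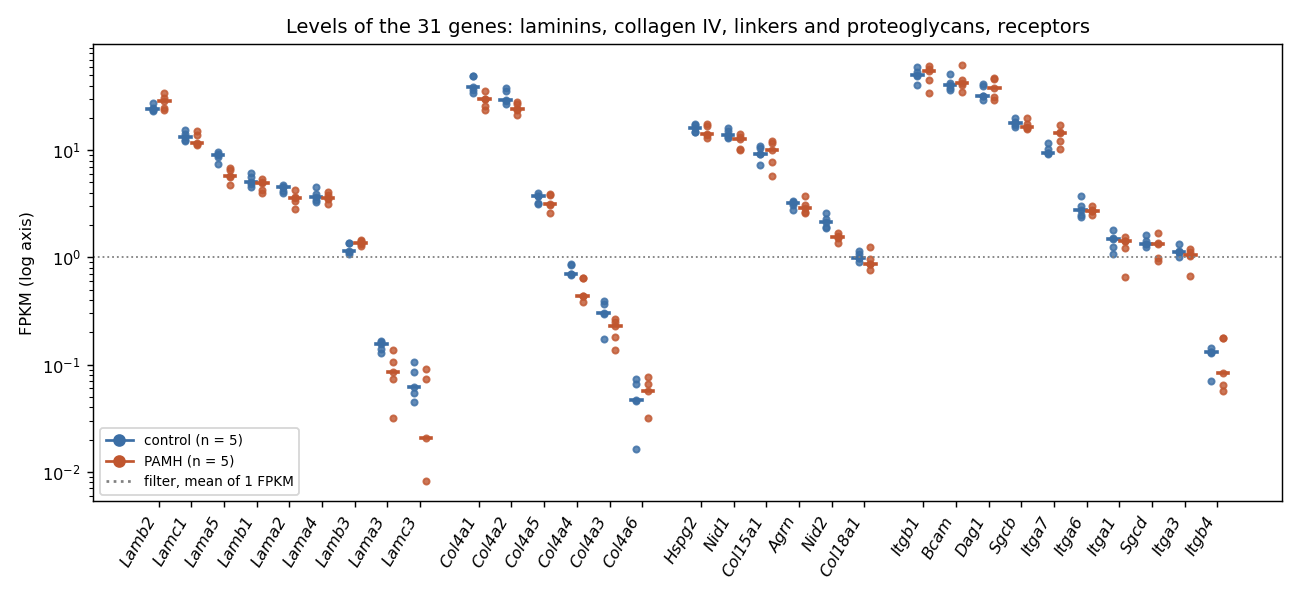
FPKM on a log axis of the 31 genes in 5 control (blue) and 5 PAMH (orange) hearts, by role and in falling order of mean level; bars are group medians, the dotted line is the filter at 1 FPKM, and values of 0 are not drawn. Lamb2, Col4a1, Hspg2 and Itgb1 are the highest of their roles, and 7 genes lie below the filter.

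Among the laminin alpha chains Lama5 was the most abundant in controls and the 1 called as lower. Lama5 encodes the alpha chain of vascular and epithelial laminins. It was at 8.96, 7.36, 8.68, 9.19 and 9.72 FPKM in control replicates 1 to 5. In PAMH replicates 1 to 5 it was at 5.75, 6.79, 6.57, 5.65 and 4.69 FPKM. All PAMH values were below all control values, as was the case for 1.71% of all tested genes, while 8.44% of them did not overlap in either direction. The group means were 8.78 ± 0.883 and 5.89 ± 0.835 FPKM (log2 fold change -0.51 with SE 0.10, adjusted p = 0.0129). Lama5 also passed without any 1 of the 10 samples and without PAMH replicates 4 and 5 together (log2 fold change -0.41).

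The gene lies on chromosome 2 from 180176373 to 180225859 on the minus strand (GRCm38). RefSeq promoter windows were available for 22 of the 31 genes. The window of Lama5 is shown because this gene had the smallest p of the tested members, and only its bases upstream of every annotated start are given (GRCm38.p6, chr2:180225905-180226109, minus strand, 5′ to 3′). Capitals mark GGGCGG, the GC box bound by factors of the Sp family, or its reverse complement CCGCCC.

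Lama5: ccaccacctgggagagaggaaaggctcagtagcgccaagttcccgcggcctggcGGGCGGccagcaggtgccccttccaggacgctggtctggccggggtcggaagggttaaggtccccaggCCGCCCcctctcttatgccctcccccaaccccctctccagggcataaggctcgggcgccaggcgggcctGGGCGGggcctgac

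The stretch of 205 bases holds 3 such matches and has a GC content of 71.7%, where the median of the same stretch over all 32851 windows was 51.7%. At least 1 match was present in 25.6% of those windows. CCAAT or ATTGG, in 29.2% of windows, is not in these letters. No binding or methylation was measured, so these matches are a description of the sequence.

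The other alpha chains did not pass. Lama2, the alpha chain of striated muscle, was at 4.03, 4.53, 4.12, 4.71 and 4.54 FPKM in control replicates 1 to 5. It was at 3.66, 4.30, 3.60, 2.85 and 3.37 FPKM in PAMH replicates 1 to 5. PAMH replicate 2 lay within the control range and the other 4 below it. The log2 fold change of Lama2 was -0.25 (SE 0.09, 95% interval -0.44 to -0.06, adjusted p = 0.108). Lama4, the other endothelial alpha chain, was at 3.63, 4.49, 3.398, 3.86 and 3.28 FPKM in controls and at 3.84, 4.03, 3.14, 3.57 and 3.47 FPKM in PAMH hearts. These ranges overlapped almost wholly, and the 95% interval of the log2 fold change was -0.22 to 0.15. Lama3, an epithelial chain, stayed between 0.0320 and 0.166 FPKM and was not tested. Lama5 made up 51.5% ± 4.09 of the alpha chain FPKM in controls and 44.7% ± 3.35 in PAMH hearts, and Lama4 21.9% ± 3.19 and 27.6% ± 2.67. Both shares overlapped between the groups. The sum over the alpha chains was 16.3 to 17.9 FPKM in controls and 11.7 to 15.2 FPKM in PAMH hearts, with no overlap.

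None of the beta and gamma chains passed. Lamb2 encodes the beta chain found in mature muscle and vessels and was the most abundant laminin gene. It was at 23.2, 27.3, 23.9, 24.9 and 24.3 FPKM in control replicates 1 to 5. It was at 29.0, 30.5, 23.8, 34.2 and 24.8 FPKM in PAMH replicates 1 to 5. PAMH replicates 1, 2 and 4 were above all controls, while 3 and 5 lay among them (log2 fold change 0.19 with SE 0.10, adjusted p = 0.270). Lamb1, its counterpart of the embryo and of vessels, was at 4.55, 5.68, 5.02, 6.12 and 4.84 FPKM in controls and at 5.06, 5.36, 4.001, 4.23 and 4.97 FPKM in PAMH hearts. PAMH replicates 3 and 4 were below all controls and the others among them (log2 fold change -0.13, adjusted p = 0.444). Lamb2 made up 79.3% ± 1.17 of the beta chain FPKM in controls and 82.2% ± 2.14 in PAMH hearts. Lamb3, a beta chain of epithelia, was at 1.13, 1.08, 1.38, 1.152 and 1.37 FPKM in controls and at 1.35, 1.44, 1.35, 1.46 and 1.27 FPKM in PAMH hearts. PAMH replicates 2 and 4 were above all controls and the others among them (log2 fold change 0.10, adjusted p = 0.416). Lamc1, the gamma chain shared by most laminins, was at 12.4, 15.4, 12.3, 14.2 and 13.2 FPKM in controls and at 13.8, 14.98, 11.4, 11.6 and 11.2 FPKM in PAMH hearts. PAMH replicates 3, 4 and 5 were below all controls and the others among them (log2 fold change -0.10 with SE 0.10, adjusted p = 0.576). Lamc3 was at 0.106 FPKM or below and was listed at 0 in PAMH replicate 4.

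Of the collagen IV chains Col4a1 was called as lower and its partner Col4a2 did not pass. The chains they encode assemble with each other and form the collagen IV of most basement membranes. The genes lie head to head on chromosome 8, Col4a1 from 11198423 to 11312826 and Col4a2 from 11312805 to 11449287. They share 22 annotated bases on opposite strands. Because the exons of each run into the upstream window of the other, no promoter sequence is given for this pair.

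Col4a1 was at 38.6, 48.9, 33.8, 49.2 and 36.5 FPKM in control replicates 1 to 5. In PAMH replicates 1 to 5 it was at 30.3, 30.2, 23.8, 35.97 and 26.0 FPKM. Only PAMH replicate 4 was within the control range, above control replicate 3. The log2 fold change was -0.49 (with SE 0.13, adjusted p = 0.0461). The call of Col4a1 rested on most of the samples, being kept without control replicate 3 or PAMH replicate 4 and lost without any other single sample (adjusted p 0.0583 to 0.109).

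Col4a2 was at 29.6, 38.1, 26.7, 35.8 and 28.7 FPKM in control replicates 1 to 5. It was at 24.01, 26.8, 21.3, 28.0 and 23.8 FPKM in PAMH replicates 1 to 5. The samples kept much the same order for both genes, with control replicates 2 and 4 highest, PAMH replicate 3 lowest and PAMH replicate 4 the highest of its group. The log2 fold change of Col4a2 was -0.34 (SE 0.11, adjusted p = 0.0796), and it passed in 4 of the 22 alternatives run, with adjusted p of 0.0163 to 0.0499. The ratio of Col4a1 to Col4a2 FPKM ran from 1.27 to 1.37 in controls and from 1.09 to 1.29 in PAMH hearts.

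Col4a5, a chain of kidney and muscle basement membranes, was at 3.99, 3.73, 3.15, 3.71 and 3.21 FPKM in controls and at 3.81, 3.88, 3.08, 2.62 and 3.16 FPKM in PAMH hearts. PAMH replicates 3 and 4 were below all controls and the others among them (log2 fold change -0.09, adjusted p = 0.620). The other chains were below the filter and were not tested. Col4a4, which pairs with Col4a3 and Col4a5 in the glomerulus, was at 0.694, 0.854, 0.681, 0.861 and 0.699 FPKM in controls. It was at 0.640, 0.640, 0.441, 0.438 and 0.386 FPKM in PAMH hearts. All PAMH values were below all control values, at a level where the depth behind them is unknown. Fitted with no filter on low values, Col4a4 had an adjusted p of 0.202. Col4a3, its head-to-head neighbour, ranged from 0.136 to 0.395 FPKM over both groups with overlap, and Col4a6 was at 0.0774 FPKM or below, with a 0 in PAMH replicate 4. Col4a1 and Col4a2 together held 93.9% ± 0.632 of the collagen IV FPKM in controls and 92.9% ± 1.26 in PAMH hearts.

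**Figure D2:**
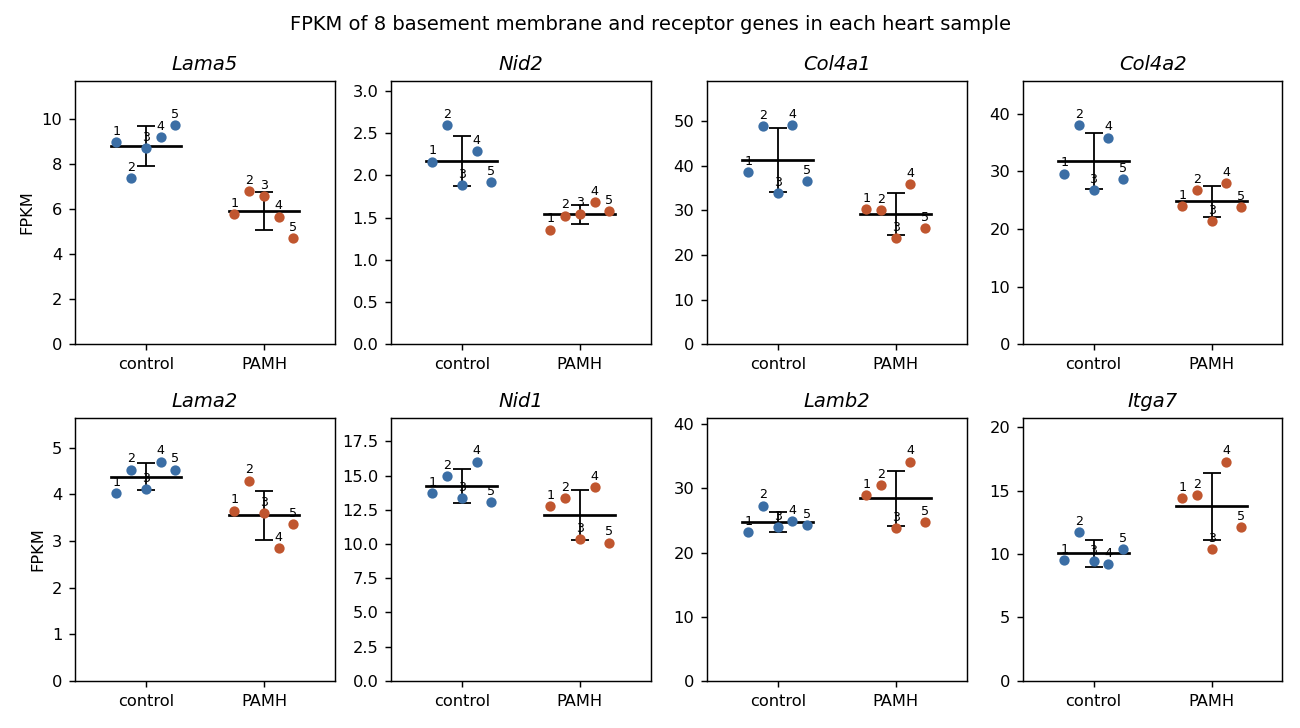
FPKM of 8 genes in each sample (points numbered by replicate) with the group mean and SD (line and bar, n = 5 each), on axes that start at 0. The groups do not overlap for Lama5 and Nid2, overlap through PAMH replicate 4 for Col4a1, and overlap for the other genes.

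Nid2 was the 1 linker gene called as lower. Nidogens bind laminin through its gamma chain and also bind collagen IV. Nid2 was at 2.16, 2.60, 1.89, 2.29 and 1.92 FPKM in control replicates 1 to 5. In PAMH replicates 1 to 5 it was at 1.36, 1.52, 1.55, 1.68 and 1.57 FPKM. All PAMH values were below all control values (log2 fold change -0.32 with SE 0.08, adjusted p = 0.0350). The call was kept without control replicate 3, PAMH replicate 3 or PAMH replicate 4 and lost without any other single sample (adjusted p 0.0509 to 0.0891). The end of Nid2 (chromosome 14, 19751265 to 19811787) shares 437 exon bases, 8.45% of its exons, with Rtraf on the opposite strand. Without a stated strand setting the reads of this stretch cannot be told apart. Rtraf itself was at 33.9 ± 1.22 and 35.4 ± 2.04 FPKM (log2 fold change 0.06, adjusted p = 0.591).

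Nid1, the more abundant nidogen, was at 13.7, 15.0, 13.4, 16.02 and 13.1 FPKM in control replicates 1 to 5. It was at 12.8, 13.3, 10.4, 14.1 and 10.1 FPKM in PAMH replicates 1 to 5. PAMH replicates 2 and 4 lay among the controls and the other 3 below them. The log2 fold change of Nid1 was -0.22 (SE 0.10, 95% interval -0.44 to -0.003, adjusted p = 0.203). The ratio of Nid1 to Nid2 FPKM was 6.61 ± 0.552 in controls and 7.93 ± 1.31 in PAMH hearts, with overlap. Hspg2, which encodes perlecan, was at 16.1 ± 1.36 and 15.1 ± 2.09 FPKM, and Agrn, which encodes the proteoglycan agrin that binds laminin and dystroglycan, at 3.14 ± 0.244 and 2.99 ± 0.463 FPKM. Neither passed, with 95% intervals of the log2 fold change of -0.30 to 0.12 and -0.25 to 0.13. Col15a1, a collagen of the outer face of basement membranes, was at 9.38 ± 1.39 and 9.48 ± 2.73 FPKM. Its PAMH values ran from 5.78 in replicate 3 to 12.2 in replicate 4, the lowest and the highest of all 10 samples (adjusted p = 0.961). Col18a1, the precursor of endostatin, had a mean of 0.985 FPKM, just below the filter, and ranged from 0.765 to 1.26 FPKM over both groups with overlap.

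None of the 9 tested receptor genes passed. Itga7 encodes the laminin-binding integrin alpha chain of striated muscle and had the smallest p among them. It was at 9.51, 11.7, 9.46, 9.18 and 10.4 FPKM in control replicates 1 to 5. It was at 14.4, 14.7, 10.4, 17.3 and 12.1 FPKM in PAMH replicates 1 to 5. PAMH replicate 3 lay within the control range and the other 4 above it (log2 fold change 0.40 with SE 0.12, adjusted p = 0.0647). Itga7 passed without PAMH replicate 3 (log2 fold change 0.49, adjusted p = 0.0133), with sample weights (adjusted p = 0.0140), with the length and GC trend removed (adjusted p = 0.0207) and among genes of at least 5 FPKM (adjusted p = 0.0418). Its share of the FPKM of the 4 listed integrin alpha chains was 64.8% ± 4.5 in controls and 72.8% ± 5.50 in PAMH hearts, with overlap.

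The other integrin genes had log2 fold changes between -0.11 and -0.02. Itgb1, the beta chain shared by these integrins, was the most abundant receptor gene at 50.7 ± 7.23 and 50.5 ± 10.9 FPKM (95% interval of the log2 fold change -0.35 to 0.31). Itgb1 was lowest in PAMH replicate 4, at 34.2 FPKM, and lay between 45.1 and 61.0 FPKM in the rest of the group. Its log2 fold change turned to 0.11 without that sample and to 0.20 without PAMH replicates 4 and 5. Itga6, a laminin receptor chain, was at 2.88 ± 0.555 and 2.76 ± 0.193 FPKM. Itga1, which binds collagen IV, was at 1.43 ± 0.281 and 1.26 ± 0.354 FPKM, and Itga3, which binds laminins that hold the Lama5 chain, at 1.154 ± 0.116 and 1.02 ± 0.200 FPKM. Itgb4, the partner of Itga6 in hemidesmosomes, was at 0.177 FPKM or below and was not tested.

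Dag1 encodes dystroglycan and was at 34.9 ± 5.19 and 38.3 ± 8.16 FPKM (log2 fold change 0.12, 95% interval -0.19 to 0.43). Sgcb and Sgcd encode sarcoglycans, which stabilise dystroglycan at the membrane, and were at 18.1 ± 1.37 and 17.3 ± 1.74 FPKM and at 1.39 ± 0.140 and 1.26 ± 0.316 FPKM. Bcam, a cell surface receptor for the Lama5 chain, was at 41.8 ± 5.78 and 45.0 ± 10.5 FPKM. Its highest value was 62.6 FPKM in PAMH replicate 4, and the other PAMH samples ranged from 34.9 to 44.7 FPKM (adjusted p = 0.746). Without PAMH replicate 4 its log2 fold change turned from 0.09 to -0.04.

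**Figure D3:**
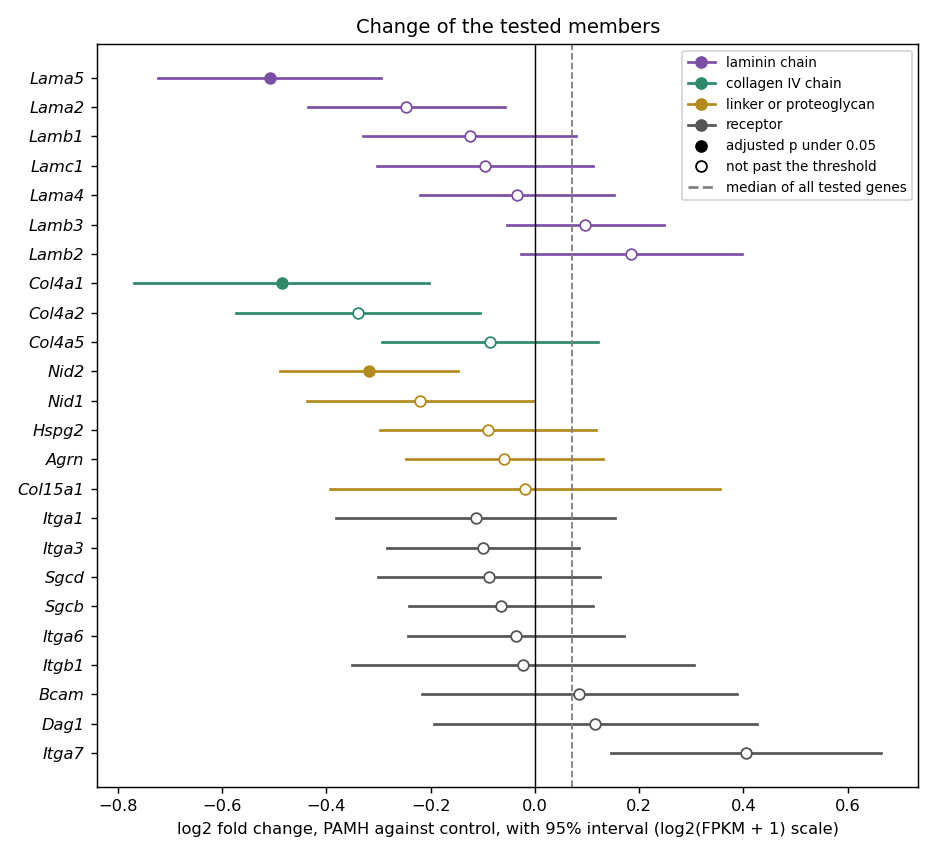
Log2 fold change of PAMH against control with its 95% interval for the 24 tested genes, by role; filled points passed the threshold and the dashed line is the median of all tested genes, 0.07. Lama5, Col4a1 and Nid2 are filled, and Itga7 lies farthest to the right at 0.40.

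**Figure D4:**
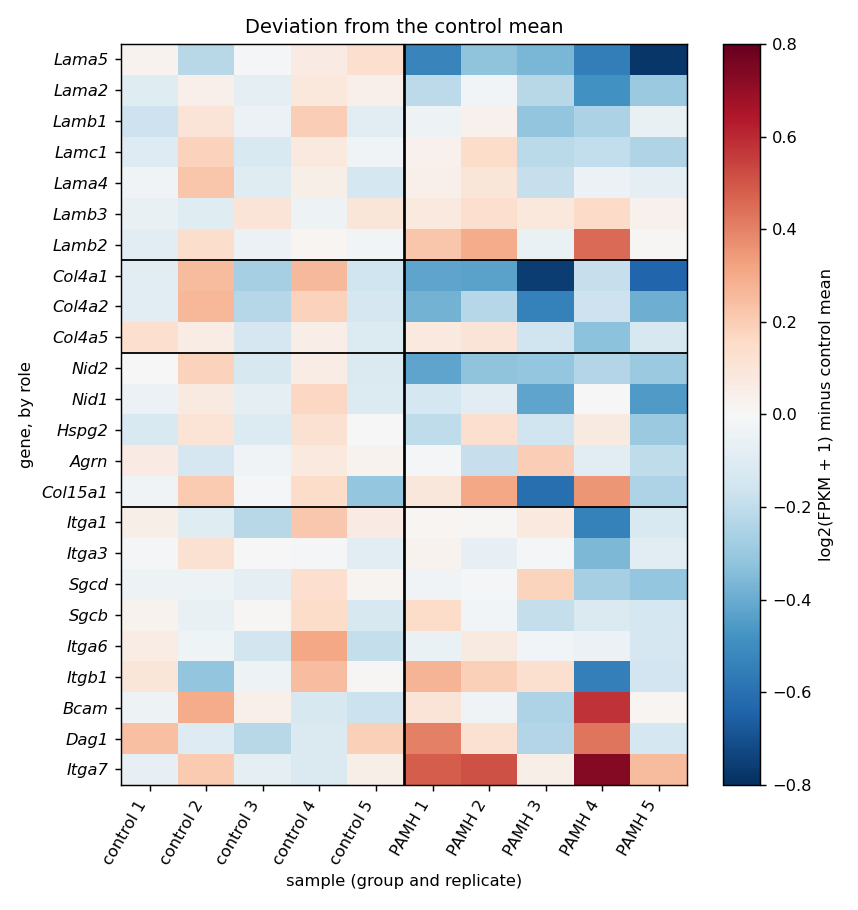
Log2(FPKM + 1) of the 24 tested genes in each sample minus the control mean, with blue for lower and red for higher values. Lama5, Nid2, Col4a1 and Col4a2 are among the genes that are blue in all 5 PAMH samples. PAMH replicate 4 holds both the lowest Itgb1 and the highest Itga7 and Bcam.

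Samples differed in how their values followed the GC content of genes, taken from the longest annotated transcript, as well as by group. Across all tested genes the rank correlation between GC content and a sample's deviation from the control mean was 0.37 in PAMH replicate 4 and 0.41 in control replicate 2, and between -0.31 and 0.13 in the other 8 samples. Across the 24 tested members it was 0.40 and 0.47 in these libraries. Of the 24, 6 were at their highest of all samples in PAMH replicate 4 (Bcam, Col15a1, Dag1, Itga7, Lamb2 and Lamb3, with GC contents of 52.8% to 60.8%). Another 5 were at their lowest there (Col4a5, Itga1, Itga3, Itgb1 and Lama2, with 42.8% to 57.9%), and the other 13, Lama5, Col4a1 and Nid2 included, were neither (37.7% to 60.9%). The rank correlation with transcript length was -0.33 and -0.26 in PAMH replicates 4 and 5, and between -0.12 and 0.19 in the others. Across the 24 tested members it was negative in every PAMH sample, from -0.58 in replicate 1 to -0.22 in replicate 2. In controls it ran from -0.41 to 0.29. Because deviations were taken from the control mean, those of the controls cancel for each gene. All PAMH samples share the group difference of these genes. A common sign in PAMH and mixed signs in controls are thus partly built in, and the contrast cannot show a length bias of the PAMH libraries. The longest annotated transcript has 11.39 kb for Lama5, 14.19 kb for Hspg2 and 2.43 kb for Bcam. With the trend on length and GC removed, Lama5 had a log2 fold change of -0.41, Col4a1 of -0.43 and Nid2 of -0.28, and all passed, while Hspg2 turned to 0.03. The correlations are across genes of the same library and are given as a description.

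Markers of the cells that lay down these sheets were measured beside them. Of 16 endothelial markers Cldn5, a tight junction protein, was lower, 15 did not pass and 7 were positive, with a median log2 fold change of -0.10. Cldn5 was at 7.51 ± 0.797 and 3.67 ± 0.907 FPKM (log2 fold change -0.88 with SE 0.12, adjusted p = 0.00200). At an unadjusted p under 0.05, 5 of the 16 passed, 4 of them lower (Cldn5, Pecam1, Esam and Fabp4) and Emcn higher, where 4.34% of all tested genes were lower. None of the endothelial markers was listed at 0 in any sample. The endothelial sum was 169.9 to 211 FPKM in controls and 154 to 178 FPKM in PAMH hearts, with overlap. Its largest term was Fabp4, at 47.2 ± 9.42 and 34.25 ± 4.76 FPKM, and no sum without Fabp4 or Cldn5 was taken. Set against the mean log2 level of these markers in the same sample, Nid2 was still lower in every PAMH sample than in every control, at -1.85 to -1.71 against -1.65 to -1.47. Lama5 then overlapped, at -0.56 to -0.15 against -0.25 to 0.25, with a mean difference of -0.39. Col4a1 overlapped likewise, at 1.56 to 1.96 against 1.94 to 2.33, with a mean difference of -0.37. The mean level of the markers itself differed by -0.115 on the log2 scale between PAMH and control hearts. That mean includes Cldn5 at -0.88 and Fabp4 at -0.44 beside the 7 positive markers, and no mean without Cldn5 or Fabp4 was taken. Every gene is shifted up by 0.115 on the relative scale. There the groups did not overlap with PAMH lower in 0.498% and with PAMH higher in 16.9% of all tested genes, and the median difference of all tested genes was 0.19. Itga7 and Lamb2, with mean differences of 0.52 and 0.30, were among the genes with PAMH higher and no overlap.

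Other cell markers differed in level as follows. Of 9 tested mural cell markers Acta2, smooth muscle actin, was higher and 8 did not pass. The sum of the 10 listed mural genes was 123 to 158 FPKM in controls and 165 to 218 FPKM in PAMH hearts. Acta2 went from 32.1 ± 5.95 to 82.5 ± 20.7 FPKM, and without it the sum of the other 9 was 97.3 to 125 and 85.5 to 118 FPKM, with overlap. None of 8 fibroblast markers and none of 9 cardiomyocyte markers passed, with sums of 332 to 368 and 284 to 402 FPKM and of 8518 to 10820 and 7542 to 12860 FPKM. At an unadjusted p under 0.05 none of the fibroblast and 3 of the cardiomyocyte markers passed in limma, as did 24.0% of all tested genes. Of 5 macrophage markers Cd68 was higher, and it, C1qa and C1qb, 3 of the 5, were higher at an unadjusted p under 0.05. Of 5 erythroid markers none passed or had an unadjusted p under 0.05. The sum of the macrophage markers was 75.9 to 89.5 and 89.1 to 108 FPKM, and that of the erythroid markers 112 to 437 and 97.3 to 863 FPKM. Of 6 mesothelial markers Upk3b, the only 1 above the filter, was higher, and their sum was 0.404 to 1.21 FPKM in controls and 2.85 to 7.38 FPKM in PAMH hearts. Upk3b had a control mean of 0.293 FPKM and reached the filter through its PAMH values. Krt19, Lrrn4 and Upk1b were listed at 0 in at least 1 control sample and in no PAMH sample. For Upk3b, Msln, Krt19, Lrrn4 and Upk1b all PAMH values were above all control values, and Wt1 overlapped. Of all tested genes 6.74% had all PAMH values above all control values. That share is over genes that reached the filter, which Msln, Krt19, Lrrn4 and Upk1b did not. All 5 Schwann cell and 7 epithelial markers were below the filter. The Schwann cell sum was 0.687 to 1.09 FPKM in controls and 0.191 to 1.52 FPKM in PAMH hearts. The epithelial sum was 0.123 to 0.4955 and 0.6865 to 2.48 FPKM, with PAMH higher and no overlap. Most of it came from Krt8, at 0.0259 ± 0.0198 and 0.504 ± 0.447 FPKM, and Krt18, at 0.266 ± 0.119 and 0.642 ± 0.469 FPKM. Each of these 2 genes overlapped between the groups. Krt14 was not higher in PAMH hearts, and Epcam was listed at 0 in 9 samples. Among the epithelial markers Cdh1, Krt5 and Sftpc were listed at 0 in all 10 samples. The part of these cells in the changes of the basement membrane genes was not tested.

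Of the wider lists around the basement membrane, most members did not pass, as was the case for all tested genes, of which 6.19% were called. Among 17 tested other basement membrane genes Papln, which encodes papilin, was lower and 16 did not pass. The median log2 fold change was -0.04. Papln fell from 1.33 ± 0.199 to 0.878 ± 0.139 FPKM (log2 fold change -0.31 with SE 0.08, adjusted p = 0.0457), and it passed in 5 of the 21 alternatives run. Its PAMH mean was below the filter of 1 FPKM, so it entered the test through its control values. Sparcl1, a matrix glycoprotein related to SPARC, did not pass at 57.7 ± 4.996 and 45.95 ± 5.25 FPKM, although the groups did not overlap (adjusted p = 0.0516). Pxdn, the peroxidase that cross-links collagen IV, did not pass at 3.81 ± 0.539 and 2.98 ± 0.207 FPKM (adjusted p = 0.0836).

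Among the genes that fold and export collagen IV 1 passed. Of 16 tested, P4hb was higher and 15 did not pass. The log2 fold change was above 0 for 12 of the 16, with P4hb among them, and the median was 0.08 where that of all genes was 0.07. P4hb, a subunit of the prolyl hydroxylase and a protein disulfide isomerase, rose from 58.0 ± 4.56 to 70.7 ± 4.90 FPKM (log2 fold change 0.28 with SE 0.08, adjusted p = 0.0442) and passed in 9 of the 22 alternatives run. Serpinh1, the collagen chaperone of the endoplasmic reticulum, did not pass at 43.0 ± 10.2 and 60.5 ± 7.48 FPKM (log2 fold change 0.50, adjusted p = 0.0551).

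Of 8 tested genes of the dystrophin-glycoprotein complex Sspn and Cav3 were higher and 6 did not pass. Among all tested genes 4.95% were called as higher. Sspn, which encodes sarcospan, a membrane partner of the sarcoglycans, rose from 31.7 ± 1.35 to 38.4 ± 2.85 FPKM (log2 fold change 0.27 with SE 0.07, adjusted p = 0.0405). Cav3, the muscle caveolin, rose from 30.6 ± 1.39 to 38.3 ± 4.02 FPKM (log2 fold change 0.31 with SE 0.08, adjusted p = 0.0390). In both the lowest PAMH value exceeded the highest control value, as in 6.74% of all tested genes. Sspn passed in 8 and Cav3 in 9 of the 22 alternatives run. None of 15 tested genes that glycosylate dystroglycan, none of 13 other integrins and matrix receptors and none of 15 integrin-linked adaptors passed in limma. Their median log2 fold changes were 0.06, 0.05 and -0.01, and 5, 1 and 1 of them had an unadjusted p under 0.05. Of all tested genes 24.0% were at that level.

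Among the matrix proteases and inhibitors Timp4 was lower and Mmp3 was higher. Timp4, the metalloproteinase inhibitor best known from heart, fell from 9.02 ± 0.952 to 5.32 ± 1.37 FPKM (log2 fold change -0.69 with SE 0.14, adjusted p = 0.0144). Mmp3, or stromelysin, which cuts laminin and nidogen, rose from 0.898 ± 0.119 to 1.66 ± 0.346 FPKM (log2 fold change 0.48 with SE 0.10, adjusted p = 0.0151). The control mean of Mmp3 was below the filter of 1 FPKM, so it entered the test through its PAMH values. Timp4 passed in 21 of the 22 alternatives run and Mmp3 in 19 of 21.

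**Figure D5:**
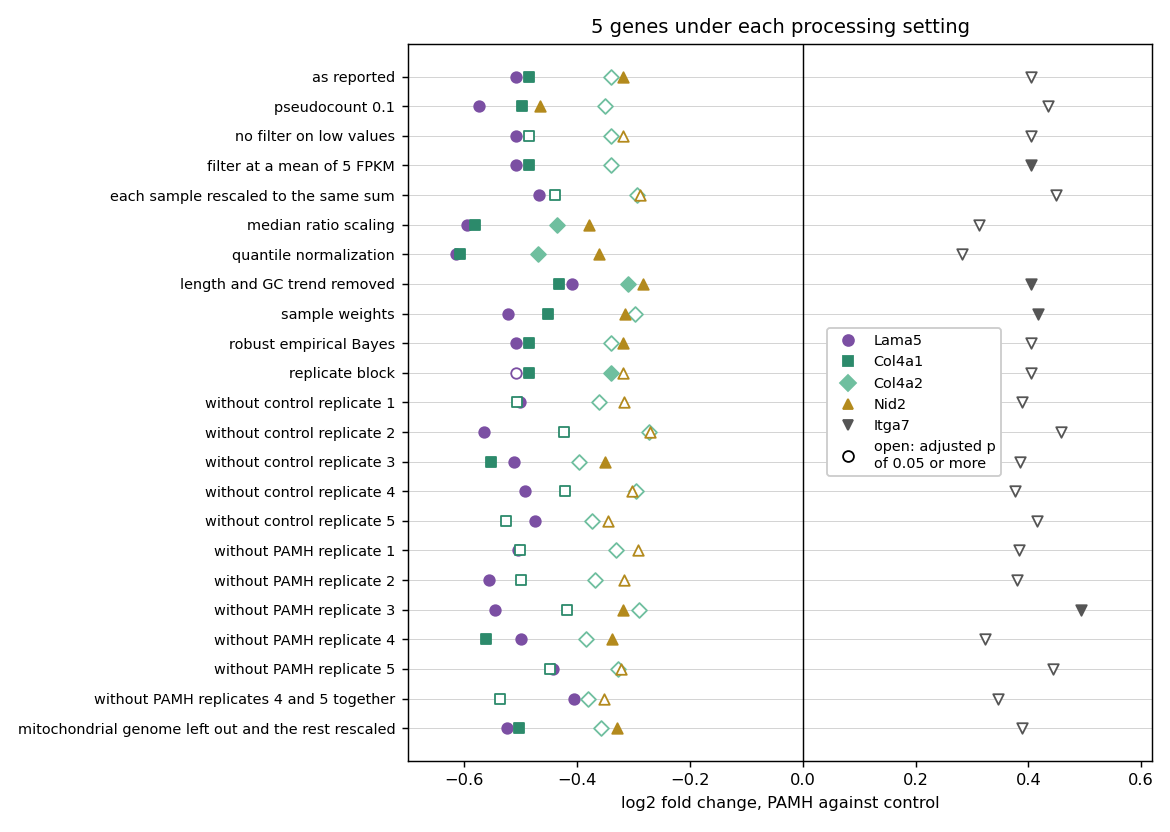
Log2 fold change of Lama5, Col4a1, Col4a2, Nid2 and Itga7 under the reported fit and 22 other settings (rows); filled markers passed the threshold. All values of Lama5, Col4a1, Col4a2 and Nid2 are negative and all values of Itga7 positive, and Lama5 is filled in all rows but that of the replicate block.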

How the data were processed

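RNA-seq was done on heart tissue of male mice, in 5 control and 5 PAMH samples. Groups and replicate numbers came from the sample titles. The authors deposited 1 table of FPKM for 55335 Ensembl genes, with nothing in it that gives counts, so the read depth behind each value is unknown. Per the submitters' processing notes the tools were HISAT2 2.2.1, FastQC 0.11.9, DESeq2 1.18.1, Trimmomatic 0.38, R 3.4.1 and HTSeq 0.13.5, and the build was mm10. No step is assigned to a tool there. Which tool made the FPKM, on which annotation and with which strand setting, is not given in the sources used here.

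Symbols came from GENCODE vM21 (build GRCm38, which is mm10), where 55154 identifiers were found. FPKM were transformed as log2(FPKM + 1). Genes whose mean over the 10 samples reached 1 FPKM were fitted with limma 3.58.1 in R 4.3.3 (group term, intensity trend, 2-sided, Benjamini-Hochberg over all genes tested, threshold 0.05). The script was tested on simulated data. Figures were drawn with matplotlib 3.10.9.

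The members, the wider lists, the markers and the alternatives were chosen with earlier results of these data known. Values by sample are printed for members past the threshold, for members whose groups do not overlap, and for the collagen IV, laminin and nidogen chains above the filter. Itga7, the next member by p among those that missed the threshold, was added after its values were seen. In wider and marker lists the members past the threshold are named, except 1 that is not reported here. Others named there were chosen after their values were seen.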

Additional observations from a re-analysis of the deposited data

Results flagged for a closer look

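In 62 groups of 5 values (31 genes in each group of samples) the highest or lowest sample was set against the others, and 1 stood apart by Dixon's criterion. Itgb4 was at 0.0705 FPKM in control replicate 1, against 0.128 to 0.142 FPKM in the other controls. Chance flags about 1 in 20 such groups, and this gene was below the filter and in no test.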

How the results depend on the processing

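Lama5 was past the threshold in 21 of 22 alternatives, Col4a1 in 11 of 22 and Nid2 in 10 of 21, and all 3 had negative log2 fold changes throughout. Of the members not past it, Col4a2 and Itga7 passed in 4 of 22 alternatives each, and Lama2 and Nid1 passed under quantile normalization. The cause of these shifts was not tested. Depth is unknown for FPKM, so what it limits at low levels cannot be given.

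Over all genes 584 were called, 467 higher and 117 lower. The counts were 264 (196 higher, 68 lower) with no filter on low values, 902 (760 higher) with the length and GC trend removed, 1214 (1038 and 176) with sample weights and 357 (275 higher) without PAMH replicates 4 and 5 together. The split was 218 higher and 212 lower with median ratio scaling, and 234 and 246 with quantile normalization. It was 75 lower with a filter at a mean of 5 FPKM. Leaving out 1 sample at a time gave 274 (without control replicate 3) to 1126 (without PAMH replicate 3) called, 202 to 979 higher and 66 to 147 lower.

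Of the members 1 was called, as lower, with no filter, with each sample rescaled to the same sum and without PAMH replicates 4 and 5. With quantile normalization 6 were called, all lower, and with the length and GC trend removed 5 were called, 1 of them higher. The 1 member that was higher there, with sample weights and with the filter at 5 FPKM was Itga7. Leaving out 1 sample gave 1 to 3 called, 1 to 3 lower and 0 to 1 higher. In the wider lists 7 genes were called, 1 with no filter, 12 with sample weights and 4 without PAMH replicates 4 and 5. With the mitochondrial genome left out and the rest rescaled, an alternative chosen after seeing the data, 4 were called, and leaving out 1 sample gave 3 to 10.

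Fold changes near 0 changed sign, none past the threshold. With the same sum, Lama4 was at 0.003, Col15a1 and Itgb1 at 0.025 on the log2 scale. With the length and GC trend removed, Lama4 was at 0.034, Hspg2 at 0.031, Agrn at 0.030, Col15a1 at 0.014 and Itgb1 at 0.008. With sample weights, Lama4 was at 0.025, Col15a1 at 0.037 and Itgb1 at 0.061. Without PAMH replicates 4 and 5, Col4a5 was at 0.009, Itga1 at 0.033, Itgb1 at 0.196, Sgcd at 0.045 and Bcam at -0.057. Bcam was at -0.011 with median ratio scaling and -0.047 with quantile normalization, where Dag1 was at -0.020. Leaving out 1 sample gave -0.07 to 0.020 for Lama4, -0.112 to 0.128 for Col15a1, -0.084 to 0.040 for Itga6, -0.101 to 0.108 for Itgb1 and -0.039 to 0.167 for Bcam.

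Whether the replicate numbers pair the samples is not in the labels. Deviations of same-numbered samples correlated at -0.195 to 0.16, and 1 of the 5 numbers had its own partner as the best match. These values cannot decide it, since a weak shared effect could be missed. With the replicate number as a block, 239 genes were called (175 higher, 64 lower), with 2 members, Col4a1 and Col4a2, and 2 genes of the wider lists.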
